A study of Mus musculus with 9 samples.

Results

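The genes described here are 10 regulators of the G1 phase of the cell cycle, taken from a table of 56748 genes by their symbols. They are the Cip/Kip inhibitors Cdkn1a, Cdkn1b and Cdkn1c, the INK4 inhibitors Cdkn2a, Cdkn2b, Cdkn2c and Cdkn2d, and the D cyclins Ccnd1, Ccnd2 and Ccnd3. All 10 were annotated as protein-coding and each had 1 row of counts.

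RNA-seq was performed on 9 libraries of hematopoietic stem cells (HSCs) sorted from mouse bone marrow, with 3 biological replicates in each of 3 groups. All mice were females of a C57BL/6 background. Young HSCs (yHSCs) came from mice of 6 to 10 weeks. Pre-aged HSCs (paHSCs) came from mice of 14 to 16 months and were divided at the sorter by surface P-selectin, the product of Selp, into Selp_low and Selp_high cells. All 3 groups were gated as lineage-negative, Sca-1-positive, c-Kit-positive, CD48-negative and CD150-positive cells, no mutation or treatment is named for any group, and the sources used here do not say whether a replicate pooled several mice. The comparison of Selp_high with Selp_low paHSCs addresses what differs within a pre-aged HSC pool, and each was also set against yHSCs.

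D cyclins bind CDK4 and CDK6 and start the phosphorylation of Rb, which frees E2F factors and lets a cell leave G1. INK4 proteins bind CDK4 and CDK6 and keep D cyclins from them, whereas Cip/Kip proteins bind complexes of cyclin and CDK and mainly block CDK2. In HSCs, which are mostly quiescent, Cdkn1c (p57) is known for maintaining quiescence, Cdkn2c (p18) for limiting self-renewal, and Cdkn2a (p16Ink4a and p19Arf) for rising in some aged or stressed stem cells.

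Of the 10 members, 7 matched a promoter window of RefSeq (build GRCm38.p6), with 11 windows in all, since Ccnd3, Cdkn1a, Cdkn2a and Cdkn2c each have 2 starts in that table. The 250 bases before the start are shown for 3 windows: that of the upstream start of Cdkn1a, because the p53 pathway that drives this gene is described below, and those of Cdkn2c and Cdkn2d, because these INK4 genes rose and fell together across the libraries. Capitals mark a match of the p53 type in Cdkn1a (CATG, 6 free bases, CATG) and of the E2F type GGCGGGA in the others, searched on both strands. These motifs and windows were chosen with the expression values known.
Cdkn1a, chr17:29090729-29090978, plus strand: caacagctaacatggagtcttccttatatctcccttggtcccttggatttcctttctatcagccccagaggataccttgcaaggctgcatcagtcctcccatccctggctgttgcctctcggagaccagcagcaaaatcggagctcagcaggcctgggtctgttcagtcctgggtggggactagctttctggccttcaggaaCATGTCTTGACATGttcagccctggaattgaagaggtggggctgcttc
Cdkn2c, chr4:109666757-109667006, minus strand: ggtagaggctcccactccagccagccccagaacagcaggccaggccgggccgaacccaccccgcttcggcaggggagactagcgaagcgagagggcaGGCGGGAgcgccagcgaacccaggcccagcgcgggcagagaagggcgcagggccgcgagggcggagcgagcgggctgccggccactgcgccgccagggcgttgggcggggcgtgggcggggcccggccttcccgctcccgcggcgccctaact
Cdkn2d, chr9:21291210-21291459, minus strand: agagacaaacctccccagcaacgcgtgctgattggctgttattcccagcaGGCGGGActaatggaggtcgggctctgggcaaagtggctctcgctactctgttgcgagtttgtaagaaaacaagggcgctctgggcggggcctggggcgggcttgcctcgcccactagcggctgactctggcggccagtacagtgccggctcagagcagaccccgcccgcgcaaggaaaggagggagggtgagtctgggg
The p53-type pair stood in 0.49% of all 32851 windows of this length and in 1 of the 11 member windows. The motif GGCGGGA stood in 9.75% of all windows and in 2 member windows, those printed. A second E2F-type motif, TTTNNCGC, stood in 4.28% of all windows and in both windows of Cdkn2a, and no member window held both E2F-type motifs. The FOXO-type motif GTAAACA stood in 3.17% of all windows and in the upstream window of Ccnd3. A match describes these letters only and does not show that a factor binds.

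The libraries held 24866975 to 35375310 counts, so that a count of 0 allowed at most 0.0695 to 0.198 CPM (counts relative to library size, scaled by TMM factors), a limit that covers counting error only. Genes with at least 1 count numbered 21094 in yHSC replicate 2, 21755 in Selp_high replicate 1 and 25192 in Selp_high replicate 3. In the other libraries they numbered 31236 to 34143. All 10 HSC markers were detected in every library, and their summed level was 1041 to 2319 CPM in yHSCs, 823 to 1508 CPM in Selp_low paHSCs and 2178 to 3141 CPM in Selp_high paHSCs. Slamf1, which encodes the CD150 used in the sort, was lowest in yHSC libraries, at 10.9 to 19.3 CPM against 41.0 to 198 CPM in paHSC libraries. Markers of other blood cell types were present too. The 8 neutrophil markers summed to 64785 CPM in yHSC replicate 1, 212146 CPM in Selp_low replicate 3 and 41383 CPM in Selp_high replicate 3, against 496 to 18198 CPM in the other libraries. Elane and Mpo, both on this list, were at 7924 and 6217 CPM in Selp_low replicate 3 but at 361 and 224 CPM in yHSC replicate 1. The 6 B cell markers summed to 5225 and 7391 CPM in Selp_low replicates 1 and 2, against 50.3 to 437 CPM elsewhere, and the 4 plasma cell markers reached 100051 CPM in Selp_low replicate 2. The 5 T and NK markers summed to 241 to 773 CPM in Selp_low libraries, against 52.7 to 111 CPM elsewhere. In Selp_low replicate 2 the 10 genes with most counts held 44.8% of all counts, against 3.90% to 20.9% in the other libraries. That library also held the lowest Cdkn1a, Cdkn1c and Ccnd1. In these bulk samples, fewer cells of a type and less RNA per cell cannot be told apart. Selp itself was at 264 to 652 CPM in Selp_high, 29.3 to 109 CPM in Selp_low and 20.5 to 30.0 CPM in yHSC libraries, so the labels and the sorted marker matched.

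Levels of different genes were compared per length, as FPKM averaged over the 9 libraries. Cdkn2d (p19Ink4d) was the most abundant member at 94.1 FPKM and lay above Ccnd3, the next at 48.2 FPKM, in 9 of 9 libraries. Ccnd2 followed at 32.0 FPKM, and its order with Ccnd3 was not fixed, since Ccnd3 was higher in 5 of 9 libraries. Cdkn1a (p21) averaged 19.4 FPKM, Cdkn1c 11.0 FPKM and Cdkn2c 10.5 FPKM, and the last pair could not be ordered, Cdkn1c being higher in 4 of 9 libraries. Ccnd1 at 2.24 FPKM and Cdkn1b (p27) at 2.16 FPKM were also not separable, with Ccnd1 higher in 5 of 9. Cdkn2b (p15) averaged 0.383 FPKM and Cdkn2a 0.0678 FPKM. Per length, each library therefore held the RNA of an INK4 gene, Cdkn2d, above that of any Cip/Kip gene or D cyclin. This order rests on the gene lengths, 1574 bases for Cdkn2d, 8775 for Ccnd3 and 9409 for Ccnd2. Without division by length, Cdkn2d averaged 148 CPM, below Ccnd3 at 423 CPM and Ccnd2 at 301 CPM. The lengths of the transcripts in these cells were not measured. The INK4 genes best known in aging were near the limit of detection.

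**Figure D1:**
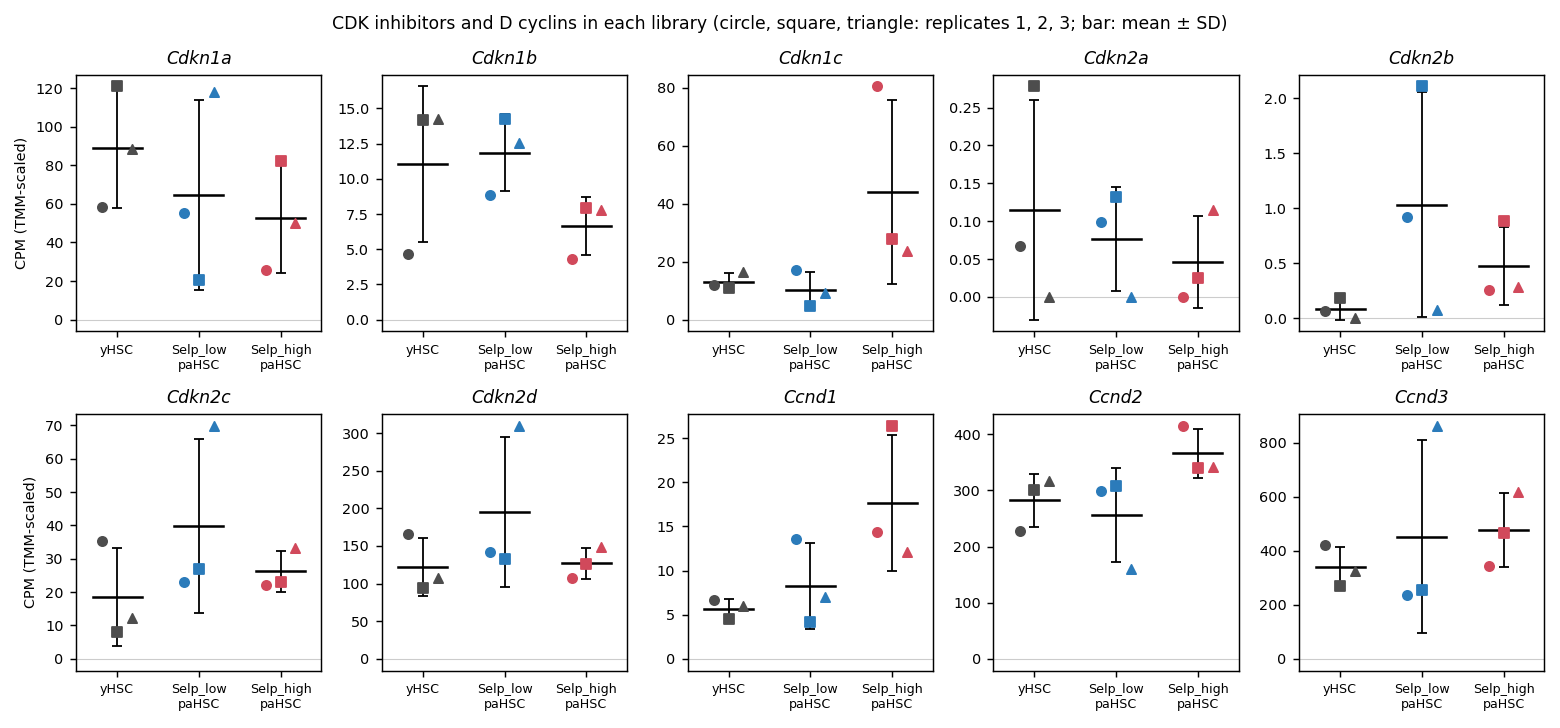
TMM-scaled CPM of the 10 members in each of the 9 libraries; symbols are replicates 1 (circle), 2 (square) and 3 (triangle), and bars give the mean ± SD of each group (n = 3). Cdkn1c lies higher in all 3 Selp_high libraries, from 23.6 to 80.5 CPM, than in any other library, and Selp_low replicate 3 holds the highest Cdkn2c, Cdkn2d and Ccnd3 and the lowest Ccnd2.

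Among the Cip/Kip inhibitors, Cdkn1c stood higher in Selp_high paHSCs. It was at 80.5, 27.7 and 23.6 CPM in Selp_high replicates 1, 2 and 3, at 17.0, 4.74 and 9.29 CPM in the Selp_low replicates, and at 11.9, 10.8 and 16.3 CPM in the yHSC replicates. The lowest Selp_high library was thus above the highest library of either other group, and Selp_high replicate 1 stood far above the others. Means were 43.9 ± 31.7 CPM in Selp_high, 10.3 ± 6.20 CPM in Selp_low and 13.0 ± 2.87 CPM in yHSC libraries (SD, n = 3). The log2 fold change of Selp_high over Selp_low was 2.07 ± 0.65 (SE), or 4.20-fold, with an unadjusted p of 0.0156 and an adjusted p of 0.338 by edgeR's quasi-likelihood test over 20370 genes. Over yHSCs it was 1.74 ± 0.51, or 3.34-fold, with an adjusted p of 0.383. Neither passed the threshold for a call, an adjusted p of at most 0.05 with a log2 fold change of at least 1 in either direction. Between Selp_low paHSCs and yHSCs, Cdkn1c differed by -0.28 ± 0.49 (adjusted p = 0.948).

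The call for Cdkn1c depended on the tool and the filter. DESeq2 gave it an adjusted p of 0.0778 for Selp_high over Selp_low and of 0.0428 for Selp_high over yHSCs, and edgeR without the filter on low counts gave 0.0964 and 0.0337. With the replicate number as a block, which paired the Selp_high with the Selp_low libraries, edgeR gave an adjusted p of 0.0896 and DESeq2 of 2.44e-06. This pairing was inferred from these data and is not stated by the labels. The block version of DESeq2 called 10.4% of all genes in that comparison. Leaving out Selp_high replicate 1 lowered the log2 fold change to 1.30 over Selp_low and to 0.95 over yHSCs, and leaving out Selp_low replicate 1 raised the first to 2.68. Selp_high replicate 1 also held the highest Selp (652 CPM) and the highest HSC marker sum (3141 CPM) of the 9 libraries. Between Selp_high and Selp_low, 9 of the 10 HSC markers were higher at an unadjusted p under 0.05, as were 6.88% of all genes. The remaining marker, Ly6a, went the other way, at -1.11 ± 0.82 on the log2 scale (adjusted p = 0.612 by edgeR). Of the 10 HSC markers edgeR called 0 and DESeq2 2, where these tools called 0% and 2.4% of all genes. The list median was 1.51 on the log2 scale beside -0.11 for all genes. The 6 megakaryocyte and platelet markers had a median of 2.83 and 5 of them were higher at that unadjusted p (0 called by edgeR, 3 by DESeq2). Their sum was 1147 to 6728 CPM in Selp_high and 122 to 1951 CPM in Selp_low libraries. Within Selp_high it was lowest in replicate 1, at 1147 CPM, where Cdkn1c was highest. The part of these cell markers in the Cdkn1c difference was not tested.

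Cdkn1a, which p53 induces after DNA damage and which carries the p53-type letters printed above, showed no order of the groups. It was at 58.3, 121 and 88.4 CPM in yHSCs, at 55.5, 20.6 and 118 CPM in Selp_low and at 25.9, 82.3 and 49.9 CPM in Selp_high replicates 1, 2 and 3. All 3 groups overlapped, and the Selp_low libraries alone spanned most of the whole range, which was 5.89-fold. The log2 fold change was -0.30 ± 0.66 for Selp_high over Selp_low (adjusted p = 0.885), -0.79 ± 0.47 for Selp_high over yHSCs (adjusted p = 0.846) and -0.43 ± 0.58 for Selp_low over yHSCs (adjusted p = 0.909). Trp53, which encodes p53, and Mdm2, its inhibitor and a further p53 target, differed between Selp_high and yHSCs by 0.04 ± 0.25 and -0.19 ± 0.24.

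Cdkn1b, an inhibitor that FOXO factors induce, was at 4.64, 14.2 and 14.3 CPM in yHSCs, at 8.85, 14.2 and 12.5 CPM in Selp_low and at 4.29, 7.93 and 7.76 CPM in Selp_high replicates 1, 2 and 3. Every Selp_high library was below every Selp_low library, whereas yHSC replicate 1 lay within the Selp_high range. Selp_high over Selp_low gave -0.84 ± 0.40 (adjusted p = 0.447 by edgeR), opposite in sign to Cdkn1c. Over yHSCs the values were -0.75 ± 0.51 for Selp_high and 0.17 ± 0.46 for Selp_low, with adjusted p-values of 0.887 and 0.981.

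The make-up of the Cip/Kip group can be read within each library, where the scaling between libraries plays no part. Cdkn1c made up 82.8%, 35.3% and 42.3% of the summed Cip/Kip FPKM in Selp_high replicates 1, 2 and 3. It made up 32.2%, 20.7% and 11.2% in the Selp_low replicates and 25.1%, 12.5% and 22.2% in the yHSC replicates, so the Selp_high shares did not overlap with the others. Cdkn1a made up most of the remainder, with 51.5% to 82.0% in the 6 libraries of the other groups and 15.3% to 60.2% in Selp_high libraries. The summed Cip/Kip level itself overlapped between groups, at 27.3 to 47.7 FPKM in Selp_high, 11.2 to 40.6 FPKM in Selp_low and 23.3 to 42.5 FPKM in yHSC libraries. An exact permutation test of 3 against 3 libraries cannot give a p below 0.1, and none is given for these shares.

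**Figure D2:**
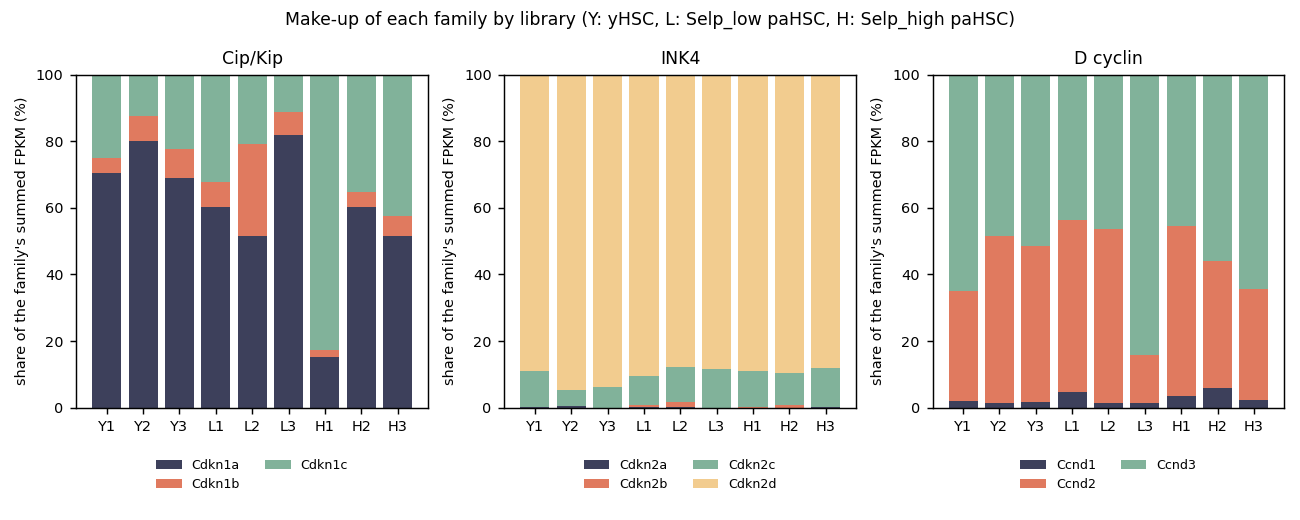
Share of each member in the summed FPKM of its family, in percent, for each library (Y, yHSC; L, Selp_low paHSC; H, Selp_high paHSC; numbers are replicates). Cdkn1c holds 35.3% to 82.8% of the Cip/Kip sum in H1 to H3 and 11.2% to 32.2% in the others, Cdkn2d holds 87.9% to 94.7% of the INK4 sum in all 9, and Ccnd2 holds 14.5% of the D cyclin sum in L3.

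In the INK4 group, Cdkn2d dominated in all 9 libraries and Cdkn2a was scarcely detected. Cdkn2a had 2, 12 and 0 counts in yHSCs, 3, 2 and 0 in Selp_low and 0, 1 and 4 in Selp_high replicates 1, 2 and 3. The largest value, 12 counts in yHSC replicate 2, was 0.278 CPM. The 3 libraries with a count of 0 allow up to 0.0820 CPM in yHSC replicate 3, 0.112 CPM in Selp_low replicate 3 and 0.0775 CPM in Selp_high replicate 1. Cdkn2a did not pass the filter on low counts in any comparison. Without the filter edgeR gave it adjusted p-values of 0.934 for Selp_high over Selp_low, 0.993 for Selp_high over yHSCs and 0.986 for Selp_low over yHSCs. A difference with age or with Selp was not detectable with these counts. Reads are counted per gene, so transcripts of the p16Ink4a start and of the p19Arf start are merged.

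Cdkn2b, the neighbour of Cdkn2a and a target of TGF-beta signaling, was also low. It had 2, 8 and 0 counts in yHSCs, 28, 32 and 2 in Selp_low and 10, 36 and 10 in Selp_high replicates 1, 2 and 3. All Selp_high libraries were above all yHSC libraries on the CPM scale (0.258 to 0.887 against 0 to 0.185 CPM), whereas Selp_low libraries spread from 0.0749 to 2.11 CPM and overlapped with both. It passed the filter only for Selp_high over Selp_low, where the log2 fold change was -1.10 ± 1.20 (adjusted p = 0.741). Over yHSCs, whose libraries held 0 to 8 counts, DESeq2 gave 3.56 ± 1.44 for Selp_low (adjusted p = 0.204) and edgeR without the filter 3.46 (adjusted p = 0.625). For Selp_high they gave 2.40 ± 1.61 and 2.48, the latter with an adjusted p of 0.851. These rest on few counts, and none passed the threshold. The 3 highest libraries, Selp_low replicates 2 and 1 and Selp_high replicate 2, were in the same order the 3 highest in B cell markers (7391, 5225 and 437 CPM), and the part of B cells in these counts was not tested. An antisense lncRNA, Gm12610, overlaps 4741 bases of the Cdkn2b locus, introns included, and had 3 to 72 counts. The counted length of Cdkn2b is 1390 bases, and the overlap of exons was not measured. Whether counting used the strand is not given in the sources used here. If it did not, reads in any shared exons cannot be told apart.

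Cdkn2c was at 35.2, 7.90 and 12.2 CPM in yHSCs, at 23.1, 26.8 and 70.0 CPM in Selp_low and at 22.2, 23.1 and 33.3 CPM in Selp_high replicates 1, 2 and 3. The yHSC libraries held both the lowest values and the second highest, and the groups overlapped. The largest of its fold changes was that of Selp_low over yHSCs, 1.11 ± 0.69 on the log2 scale (adjusted p = 0.630). It was 2.00 without yHSC replicate 1 and 0.44 without Selp_low replicate 3, so that 1 library in either group decided its size. Selp_high gave -0.61 ± 0.47 over Selp_low and 0.45 ± 0.57 over yHSCs, with adjusted p-values of 0.626 and 0.992.

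Cdkn2d was at 166, 93.6 and 107 CPM in yHSCs, at 142, 133 and 310 CPM in Selp_low and at 107, 126 and 148 CPM in Selp_high replicates 1, 2 and 3. Selp_low replicate 3 stood apart and the other 8 libraries lay within 93.6 to 166 CPM. The log2 fold change was 0.69 ± 0.41 for Selp_low over yHSCs (adjusted p = 0.617), -0.62 ± 0.38 for Selp_high over Selp_low (adjusted p = 0.547) and 0.01 ± 0.30 for Selp_high over yHSCs (adjusted p = 0.999), where RLE and upper-quartile factors turned the sign. Without Selp_low replicate 3 the first fell to 0.17 and the second became -0.12.

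Among the D cyclins, Ccnd1 was the least abundant and differed most between the groups. It was at 14.4, 26.4 and 12.1 CPM in Selp_high, at 13.6, 4.15 and 7.01 CPM in Selp_low and at 6.63, 4.47 and 5.96 CPM in yHSC replicates 1, 2 and 3. All Selp_high libraries were above all yHSC libraries, and Selp_low replicate 1 lay within the Selp_high range. Means were 17.7 ± 7.68 CPM in Selp_high, 8.24 ± 4.83 CPM in Selp_low and 5.69 ± 1.11 CPM in yHSC libraries (SD, n = 3). Selp_high over yHSCs gave a log2 fold change of 1.61 ± 0.42, or 3.05-fold (unadjusted p = 0.00549, adjusted p = 0.297 by edgeR), and DESeq2 gave an adjusted p of 0.0252. Selp_high over Selp_low gave 1.09 ± 0.54 (adjusted p = 0.464) and 0.68 without Selp_high replicate 2. Selp_low over yHSCs gave 0.58 ± 0.51 (adjusted p = 0.787). The 6 megakaryocyte and platelet markers were all higher in Selp_high than in yHSCs at an unadjusted p under 0.05, as were 4.48% of all genes. Their median log2 fold change was 5.03. Of them edgeR called 0 and DESeq2 6, where these tools called 0.165% and 3.32% of all genes. The sum of these markers was 1147 to 6728 CPM in Selp_high and 105 to 172 CPM in yHSC libraries. It was highest in Selp_high replicate 2, as Ccnd1 was. In Selp_low replicates 1, 2 and 3 it was 122, 1504 and 1951 CPM. Ccnd1, at 13.6, 4.15 and 7.01 CPM there, was highest where the sum was lowest. The part of these markers in the Ccnd1 difference was not tested. The Ccnd1 locus, introns included, shares 1771 bases with LTO1, a gene of the opposite strand with 386 to 1433 counts against 63 to 1073 for Ccnd1. Reads in any shared exons cannot be told apart if strand was not used.

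**Figure D3:**
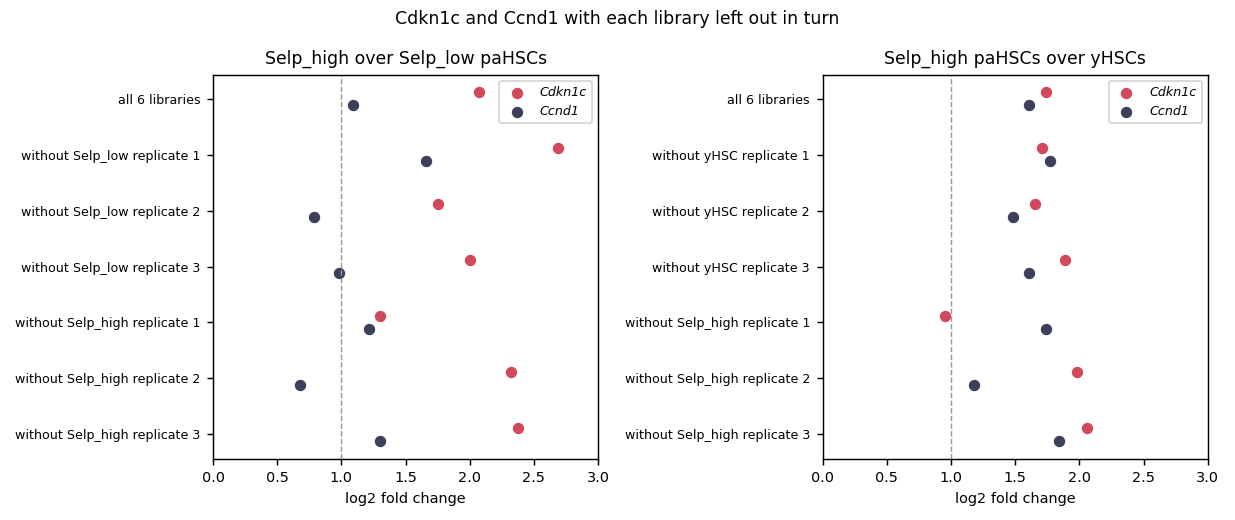
Log2 fold change of Cdkn1c and Ccnd1 (x axis) from all 6 libraries of a comparison and after leaving out each 1 of them (y axis); the dashed line marks the fold minimum of a call. Cdkn1c falls to 1.30 and 0.95 without Selp_high replicate 1, Ccnd1 falls to 0.68 and 1.18 without Selp_high replicate 2, and every value in these comparisons of Selp_high paHSCs with Selp_low paHSCs and with yHSCs stays above 0.

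Ccnd2, the D cyclin induced by cytokine signaling in blood cells, was at 415, 341 and 341 CPM in Selp_high, at 299, 308 and 159 CPM in Selp_low and at 228, 301 and 317 CPM in yHSC replicates 1, 2 and 3. The Selp_high libraries were the 3 highest and did not overlap with the others. The differences were small, at 0.51 ± 0.33 on the log2 scale over Selp_low (adjusted p = 0.570) and 0.35 ± 0.23 over yHSCs (adjusted p = 0.880). Selp_low over yHSCs was -0.08 ± 0.33 (adjusted p = 0.992).

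Ccnd3, which lymphoid and erythroid progenitors require, was at 421, 271 and 324 CPM in yHSCs, at 237, 256 and 864 CPM in Selp_low and at 344, 467 and 620 CPM in Selp_high replicates 1, 2 and 3. Selp_low held the lowest pair of libraries and the highest library, and the groups overlapped. The log2 fold change was 0.07 ± 0.56 for Selp_high over Selp_low (adjusted p = 0.967) and 0.95 without Selp_low replicate 3, which did not pass either (adjusted p = 0.326). It was 0.45 ± 0.30 for Selp_high over yHSCs (adjusted p = 0.886), and that of Selp_low over yHSCs, 0.43 ± 0.53 (adjusted p = 0.893), turned to -0.46 without Selp_low replicate 3. The Ccnd3 locus, introns included, shares 361 bases with Bysl on the opposite strand, which had 608 to 1811 counts, fewer than Ccnd3 at 3880 to 23068.

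Within the D cyclins, Ccnd1 made up 2.36% to 5.91% of the summed FPKM in Selp_high, 1.27% to 4.67% in Selp_low and 1.49% to 1.91% in yHSC libraries. Ccnd2 and Ccnd3 shared the rest, with Ccnd2 at 33.0% to 52.2% in 8 libraries and at 14.5% in Selp_low replicate 3. The summed D cyclin level was 86.4 to 109 FPKM in Selp_high, 61.7 to 117 FPKM in Selp_low and 63.8 to 73.6 FPKM in yHSC libraries. It was higher in every Selp_high library than in every yHSC library and overlapped with Selp_low through Selp_low replicate 3.

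**Figure D4:**
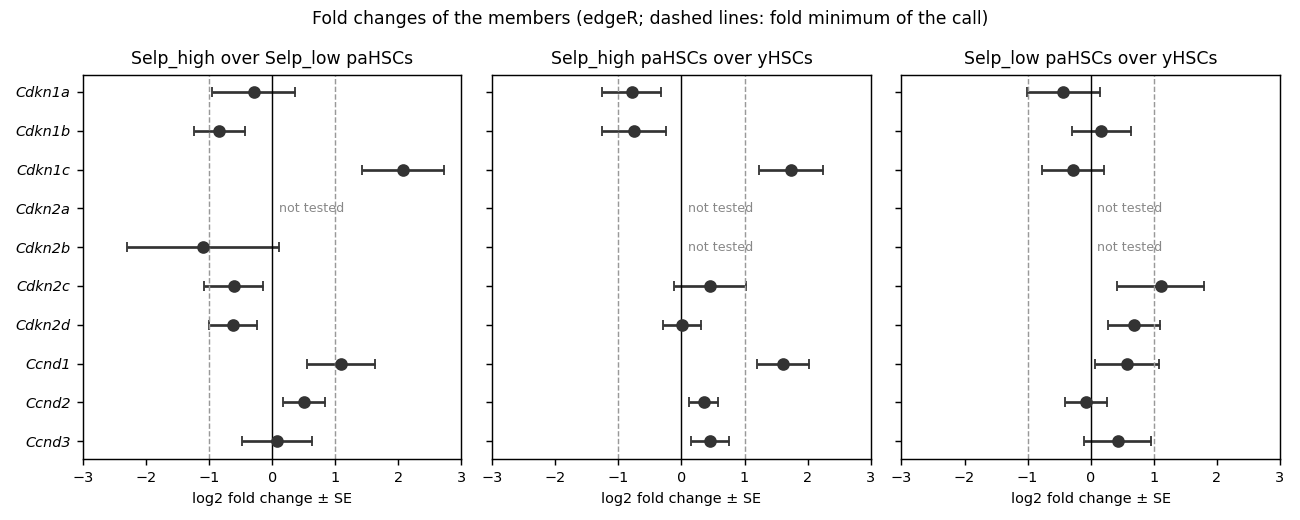
Log2 fold change ± SE of each member (edgeR) in the 3 comparisons, with dashed lines at the fold minimum of a call; members that did not pass the filter and so have no value in this fit are marked as not tested. Cdkn1c and Ccnd1 lie farthest to the right for Selp_high paHSCs, at 2.07 and 1.09 over Selp_low and at 1.74 and 1.61 over yHSCs, and no member passed the adjusted threshold.

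Counted over the members, edgeR called 0 of the 9 tested for Selp_high over Selp_low, as it called 0% of the 20370 genes, with 1 member (Cdkn1c) at an unadjusted p under 0.05, where 12.5% of all genes were. DESeq2 called 0 members against 2.4% of genes there, and with the replicate block it called 1, Cdkn1c, against 10.4% of genes. For Selp_high over yHSCs, edgeR called 0 of 8 tested members against 0.165% of 20017 genes, with 2 (Cdkn1c and Ccnd1) at an unadjusted p under 0.05, where 7.59% of all genes were. DESeq2 called both of these, against 3.32% of genes, with the replicate block it called Cdkn1c alone, against 3.77%, and edgeR without the filter also called Cdkn1c alone, against 1.14%. Libraries of Selp_high and yHSCs were not taken as pairs, so the block has no pairing behind it in that comparison. For Selp_low over yHSCs, edgeR called 0 of 8 tested members against 0% of 20437 genes, 0 had an unadjusted p under 0.05 against 11.3% of all genes, and DESeq2 called 0 against 2.57%. In the test of any difference among the 3 groups, edgeR called 0 of 9 tested members against 0.0133% of 22594 genes. The unadjusted p was 0.00817 for Cdkn1c (adjusted p = 0.225) and 0.0210 for Ccnd1 (adjusted p = 0.299). Without the filter Cdkn1c was called in that test (adjusted p = 0.0290), against 1.58% of genes.

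Members whose groups did not overlap were 2 tested members higher (Cdkn1c and Ccnd2) and 1 lower (Cdkn1b) in Selp_high than in Selp_low, where 10.3% of all tested genes were higher and 10.6% lower in this way. Against yHSCs, 3 tested members (Cdkn1c, Ccnd1 and Ccnd2) and Cdkn2b, which the filter had removed, were higher in Selp_high and 0 lower, where the shares over all tested genes were 8.52% and 5.28%. For Selp_low against yHSCs every member overlapped, where the shares were 9.59% higher and 6.74% lower. The median log2 fold change of the tested members was -0.30 for Selp_high over Selp_low, 0.40 for Selp_high over yHSCs and 0.30 for Selp_low over yHSCs, beside -0.11, -0.03 and 0.08 for all genes. The comparisons share libraries in pairs, so their values are not independent of each other.

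Cdkn2c, Cdkn2d, Ccnd3 and Ccnd2 also differed between libraries of the same group. Cdkn2c and Cdkn2d were highest in the same 3 libraries in the same order, Selp_low replicate 3, yHSC replicate 1 and Selp_high replicate 3, and these were also the 3 libraries with the highest neutrophil marker sums, in that order. Ccnd3 was highest in Selp_low replicate 3 and Selp_high replicate 3, followed by Selp_high replicate 2 and then yHSC replicate 1. Ccnd2 was lowest in Selp_low replicate 3 and next lowest in yHSC replicate 1. The 20 proliferation markers, genes of S phase and mitosis, were highest in the same libraries, at 6635 CPM in Selp_low replicate 3, 4968 CPM in Selp_high replicate 3 and 4134 CPM in yHSC replicate 1, against 1831 to 3102 CPM in the other 6. Among the other 6 libraries this order did not hold, since yHSC replicates 2 and 3 had the highest neutrophil sums of these (12687 and 18198 CPM) and the lowest Cdkn2c (7.90 and 12.2 CPM). With the library of the highest neutrophil sum left out of each group, edgeR called 0 members in each comparison. It called 0% of all genes for Selp_high over Selp_low and over yHSCs, and 7.12% for Selp_low over yHSCs, where Cdkn2c came to an adjusted p of 0.0679. The part of neutrophils and of dividing cells in these levels was not tested.

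**Figure D5:**
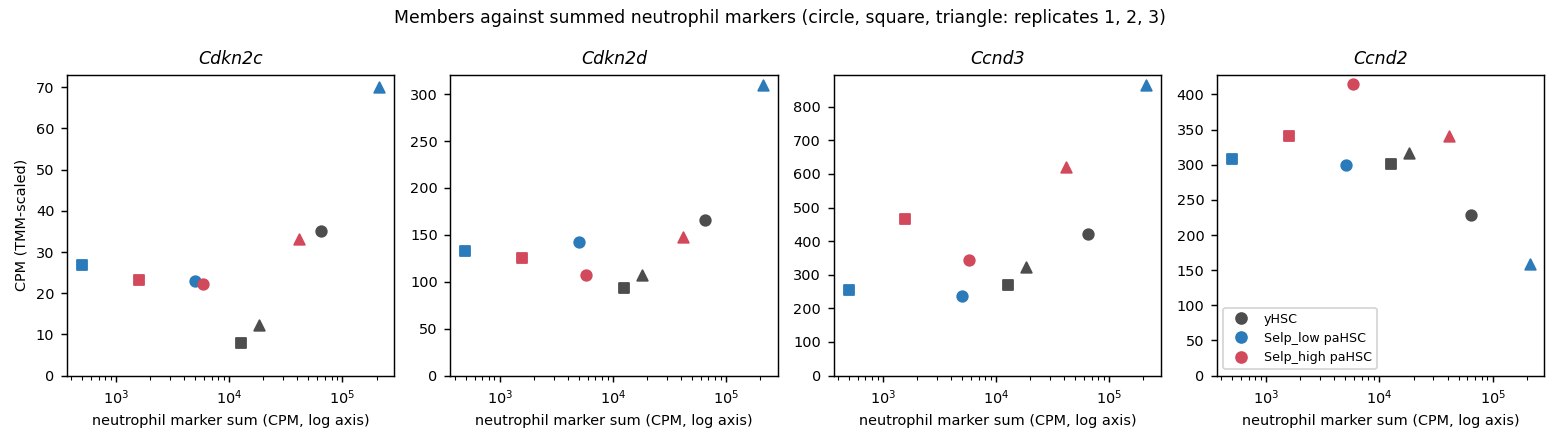
TMM-scaled CPM of Cdkn2c, Cdkn2d, Ccnd3 and Ccnd2 (y axes) against the summed CPM of 8 neutrophil markers (x axis, log scale) in the 9 libraries, coloured by group, with symbols for replicates. Selp_low replicate 3, at 212146 CPM of neutrophil markers, has the highest Cdkn2c, Cdkn2d and Ccnd3 (70.0, 310 and 864 CPM) and the lowest Ccnd2 (159 CPM).

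The partners of the members were followed in 4 lists of cell cycle genes. In the list of 10 G1 kinases with cyclin E and A partners, edgeR called 0 genes and 0 had an unadjusted p under 0.05 in any of the 3 comparisons, and DESeq2 called 0. Shares over all genes are given for Selp_high over Selp_low, Selp_high over yHSCs and Selp_low over yHSCs. They were 12.5%, 7.59% and 11.3% at that p, 0%, 0.165% and 0% called by edgeR, and 2.4%, 3.32% and 2.57% called by DESeq2. Cdk4, the main partner of D cyclins, was at 321 to 463 CPM in yHSCs, 308 to 460 CPM in Selp_low and 346 to 486 CPM in Selp_high libraries, and its log2 fold changes lay between -0.04 and 0.22. Cdk6, its close relative, was at 34.5 to 51.0 CPM, 30.1 to 106 CPM and 13.5 to 60.5 CPM in the same order, lowest in Selp_high replicate 1. Its log2 fold change was -0.80 ± 0.67 for Selp_high over Selp_low (adjusted p = 0.655) and 0.87 ± 0.46 for Selp_low over yHSCs (adjusted p = 0.547). Cdk2, the target of Cip/Kip proteins, was at 82.6 to 126 CPM in Selp_high, 58.2 to 142 CPM in Selp_low and 96.0 to 124 CPM in yHSC libraries.

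Of the 14 Rb pocket proteins and E2F factors, 0 were called in any comparison by edgeR or DESeq2. At an unadjusted p under 0.05, 2 were higher for Selp_high over Selp_low, where 6.88% of all genes were, and 0 for the others. Of the 20 proliferation markers, 0 were called by either tool and 0 had an unadjusted p under 0.05 in any comparison, with 6 positive and 14 negative fold changes for Selp_high over Selp_low. Beside the zeros of both lists, the shares over all genes, in the order used for the G1 kinases, were 12.5%, 7.59% and 11.3% at that p. Those called were 0%, 0.165% and 0% by edgeR and 2.4%, 3.32% and 2.57% by DESeq2. Mki67, a marker of cycling cells, was at 7.70, 62.4 and 94.5 CPM in Selp_high replicates 1, 2 and 3, at 22.7, 31.0 and 94.6 CPM in Selp_low and at 55.9, 48.7 and 28.2 CPM in yHSCs. The library with the lowest Mki67, Selp_high replicate 1, was the library with the highest Cdkn1c. Selp_high replicates 2 and 3, next in Cdkn1c at 27.7 and 23.6 CPM, went the other way, with Mki67 at 62.4 and 94.5 CPM. A link of Cdkn1c with Mki67 was not tested.

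Of the 22 regulators of the inhibitors, 0 were called by edgeR, and at an unadjusted p under 0.05 there were 2 higher and 1 lower for Selp_high over Selp_low, 2 higher and 2 lower for Selp_high over yHSCs, and 0 higher and 2 lower for Selp_low over yHSCs. Over all genes the shares at that p, higher and lower, were 6.88% and 5.67%, 4.48% and 3.11%, and 7.11% and 4.17% in the same order. DESeq2 called 2.4%, 3.32% and 2.57% of all genes in these comparisons, in the same order. For Selp_low over yHSCs it called 0 of the 22. It called 1 (Mycn) for Selp_high over Selp_low and 3 (Mycn and Ndn higher, Gfi1 lower) for Selp_high over yHSCs. These 3 genes are named after their values were seen. They are Mycn, a Myc-family factor, and Ndn, an imprinted gene known for HSC quiescence, as Cdkn1c is imprinted too, and Gfi1, a repressor that restrains HSC proliferation. Mycn was at 531, 256 and 176 CPM in Selp_high replicates 1, 2 and 3 against 34.1 to 97.6 CPM in Selp_low and 64.7 to 160 CPM in yHSC libraries. Ndn was at 148, 81.5 and 80.3 CPM against 13.0 to 50.9 CPM and 20.2 to 32.9 CPM. Mycn and Ndn were highest in Selp_high replicate 1, as was Cdkn1c. For Selp_high over yHSCs, Ndn had a log2 fold change of 1.92 ± 0.34 (adjusted p = 0.119 by edgeR and 0.000127 by DESeq2), and Mycn one of 1.72 ± 0.51 (adjusted p = 0.383 and 0.0350). Gfi1 was at 21.0, 15.3 and 29.6 CPM in Selp_high, 15.3 to 60.6 CPM in Selp_low and 41.1 to 76.3 CPM in yHSC libraries, and its log2 fold change over yHSCs was -1.29 ± 0.35 (adjusted p = 0.332 and 0.0307).

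The protein-coding genes whose pattern over the 9 libraries was most like that of Cdkn2d, by Pearson's r of log2 CPM among 15759 genes, were Arl6ip6 (0.989), Orc6 (0.967) and Hacd2 (0.962). For Ccnd3 they were Rbfa (0.977), Trip13 (0.962) and Ralb (0.959). For Cdkn1c, added after its values were seen, they were Tspan4 (0.993), Il11ra1 (0.988) and Fkbp10 (0.987). These are the highest of many values over libraries that share the differences in cell markers given above, and no p is attached to them.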

How the data were processed

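Sorted HSCs were profiled by RNA-seq in 9 libraries. The authors trimmed reads with fastp, aligned them with HISAT2 2.2.1 and deposited featureCounts 2.0.6 read counts per gene, unnormalized, with a gene length. The submitters' processing notes name the build mm39. Neither the annotation release nor the strand setting is given in the sources used here. The number of unused per-sample columns was 0.

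Work was done in R 4.3.3. The main test was edgeR 4.0.16 (limma 3.58.1), DESeq2 1.42.0 was an alternative, and figures came from Python 3.11.15 with matplotlib 3.10.9. Pairs of groups were fitted separately, using TMM factors, filterByExpr, the legacy quasi-likelihood test and Benjamini-Hochberg adjustment across all genes that passed the filter. The SE of an edgeR log2 fold change was derived from the test, as its size divided by the square root of the F statistic. A 3-group test used all 9 libraries. Calls needed an adjusted p of at most 0.05 and, outside the 3-group test, a log2 fold change of 1 or more in size. The scripts were tested on simulated data. FPKM used the deposited gene length and TMM-scaled totals, and log2 CPM a prior count of 2. The filter kept Cdkn2a out of every main test and Cdkn2b out of both main comparisons with yHSCs. P-values set a difference against the spread between these replicates only, and both tools estimate that spread with information shared across genes.

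The members and the 14 gene lists, 4 of the cell cycle and 10 of cell markers, were chosen with earlier results of these data known. Named were all members, Cdk2, Cdk4, Cdk6, Mki67 and called list genes, and the 3 genes most like the most abundant inhibitor and D cyclin; the remaining names were added once values had been seen. Replicate numbers come from the sample names, which do not state whether same-numbered libraries share mice. Deviations of same-numbered Selp_high and Selp_low libraries correlated at 0.199, 0.320 and 0.325, so these were taken as pairs. The values were -0.408, -0.402 and 0.0255 for Selp_high with yHSCs and 0.0874, 0.0185 and 0.0678 for Selp_low with yHSCs, which were not. Alternatives covered library factors, the filter, the quasi-likelihood setting, DESeq2, 1 fit of all 9 libraries, the replicate block and each library left out.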

Additional observations from a re-analysis of the deposited data

How the results depend on the processing

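Of 375 alternative values of the members' fold changes, 347 kept their direction and their side of the threshold, 5 passed it and 23 changed sign, each of the last for a difference that had not passed it. No alternative gave fewer calls, since there were 0 to lose. With the replicate block edgeR called 0 members in each comparison, against 0.0442% of all genes for Selp_high over Selp_low and 0% for the others, and DESeq2 with the block, added after seeing the data, called 1 for Selp_high over Selp_low and 1 for Selp_high over yHSCs. For Selp_high over yHSCs, 1 member was called with no filter on low counts and 2 by DESeq2, and for any difference among the groups 1 with no filter. The cause of these differences between tools was not tested.

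The 5 values that passed were for Cdkn1c 2.03 (DESeq2 with the block, over Selp_low) and, over yHSCs, 1.70 (no filter), 1.72 (DESeq2) and 1.49 (DESeq2 with the block), and for Ccnd1 over yHSCs 1.59 (DESeq2). Over yHSCs the block joined libraries that were not taken as pairs. With a library left out, signs changed within these ranges of log2 fold change. Selp_high over Selp_low ran from -0.78 to 0.46 for Cdkn1a, from -0.87 to 0.063 for Cdkn2c and from -0.22 to 0.95 for Ccnd3. Selp_high over yHSCs ran from -0.12 to 0.34 for Cdkn2d, which was -0.024 with RLE factors, -0.050 with upper-quartile factors and -0.023 by DESeq2. Selp_low over yHSCs ran from -0.26 to 0.40 for Cdkn1b, -0.87 to 0.018 for Cdkn1c, -0.012 to 0.86 for Ccnd1, -0.30 to 0.11 for Ccnd2 and -0.46 to 0.72 for Ccnd3. With the library of most neutrophil marker counts left out of each group, an alternative added after seeing the data, signs changed for Cdkn1a over Selp_low (0.51) and, for Selp_low over yHSCs, for Cdkn1b (-0.28), Ccnd2 (0.0021) and Ccnd3 (-0.25). Low counts, 0 to 36, limited what could be detected for Cdkn2a and Cdkn2b, and the cause of these low counts was not tested.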
